A study of Mus musculus with 4 samples.

Results

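Nr1h5 and 9 other genes for lipid-sensing nuclear receptors were examined in sorted intestinal stem cells with and without CREPT, a regulator of transcription encoded by Rprd1b. The genes were the farnesoid X receptors Nr1h4 and Nr1h5, the liver X receptors Nr1h3 and Nr1h2, the peroxisome proliferator-activated receptors Ppara, Ppard and Pparg, the vitamin D receptor Vdr, the orphan receptor Nr5a2 and the shared partner Rxra. They are 10 of the 18436 genes in the table. The group was built around Nr1h5, which was chosen by its log2 fold change between these same mice, among the highest of the table, so its values in the genotypes are given as a description, without a test. The other 9 receptors were taken for their kinship and function, with results of these data known.

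Lgr5-GFPhigh cells were sorted from the small intestinal crypts of 2 Lgr5-CREPTWT mice (Lgr5-EGFP-IRES-creERT2, without floxed CREPT) and of 2 Lgr5-CREPTKO mice (Lgr5-GFP with CREPT fl/fl), all C57BL/6, and their RNA was sequenced. All 4 mice were given a daily dose of 1 mg tamoxifen over 5 days, with sorting on day 7, so both genotypes carry the inducible Cre and received the drug. GFP and Cre are both made from the Lgr5 gene and only a mosaic of crypts expresses them. Mice of the study were 6 to 8 weeks old and of either sex. No age or sex is listed for each of these 4, and their sex by expression is given below. The genotypes differ in their floxed alleles, so that effects of litter, line or preparation cannot be told apart from the loss of CREPT.

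Nuclear receptors are transcription factors whose ligands are small fat-soluble molecules. Bile acids activate the farnesoid X receptor, oxysterols the liver X receptors, fatty acids and their derivatives the peroxisome proliferator-activated receptors, and calcitriol the vitamin D receptor, and each of these binds DNA as a pair with a retinoid X receptor, whereas Nr5a2 binds as a single molecule. In the gut they tie bile acid recovery, cholesterol export, fat oxidation and calcium uptake to the supply of their ligands, and Nr5a2 and Ppard are also known for roles in crypt cell renewal. Nr1h5 encodes FXR-beta, a lanosterol-responsive relative of the bile acid receptor that is a pseudogene in humans.

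Levels are FPKM, which adjust read fragments for transcript length and for library size, so they can be compared between genes of different length. Differences are log2 fold changes of Lgr5-CREPTKO over Lgr5-CREPTWT on the log2(FPKM + 0.5) scale, which understates the change of low genes. limma's moderated test was run on the 12621 genes whose mean reached 0.5 FPKM, with Benjamini-Hochberg adjustment over all of them, and a gene was called where the adjusted p was below 0.05 and the log2 fold change beyond 1 in either direction. In these mice 16 genes were called higher (0.127%) and 128 lower (1.01%), 144 in either direction (1.14%), and the log2 fold changes of the genes tested had a median of -0.01. With an adjusted p below 0.05 alone the shares were 0.412% higher, 2.67% lower and 3.08% in either direction. With 2 mice a genotype, both values of one genotype lay above or below both values of the other in 56.6% of genes, 25.6% higher and 31.0% lower in Lgr5-CREPTKO cells. An exact two-sided permutation test cannot give less than p = 0.333 here, and the calls depend on the spread limma estimates over many genes. With any 1 mouse left out, no gene of the table had an adjusted p below 0.05, the smallest being 0.144 to 0.305, and this holds for each call named here.

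The genotype label was checked on Rprd1b, which was 17.69 and 18.09 FPKM in the Lgr5-CREPTWT mice and 6.65 and 7.36 in the Lgr5-CREPTKO mice, a log2 fold change of -1.29 (SE 0.0946, adjusted p = 0.028, or 0.116 without the filter and 0.0623 without the intensity trend). Stem cell markers were present in every mouse. Their summed level over 10 genes was 5837 to 6043 FPKM in Lgr5-CREPTWT and 6339 to 6565 FPKM in Lgr5-CREPTKO cells. Olfm4 alone was 4931.99 to 5076.86 and 5181.04 to 5350.9 FPKM of this. Of the 10, 8 were higher in both Lgr5-CREPTKO mice, against 25.6% of all genes tested. Outside this list, Gkn3 was 128.17 and 91.94 against 54.1 and 49.94 FPKM and was called lower (log2 fold change -1.06, adjusted p = 0.0496). Kcne3 was also lower in both Lgr5-CREPTKO mice, whereas Aqp1 and Kcnq1 were higher in both. Summed goblet markers were 1473 to 2457 against 809 to 941 FPKM (7 of 8 lower in both Lgr5-CREPTKO mice), enteroendocrine markers 214 to 311 against 72.1 to 80.2 (9 of 10) and tuft markers 27.3 to 56.7 against 8.07 to 22.2 (7 of 7). Of all genes tested, 31.0% were lower in both Lgr5-CREPTKO mice. Enterocyte markers summed to 735 to 938 against 581 to 941 and Paneth markers to 1020 to 1404 against 836 to 2457, with overlap. Hepatocyte markers summed to 64.8 to 82.2 against 53.9 to 70.1, immune markers to 13.9 to 15.2 against 7.32 to 19.5, the 2 adipocyte markers in the table to 0.98 to 1 against 0.87 to 1.63, and stromal markers to 0.74 to 0.78 against 1.33 to 1.52. None of these markers was listed at 0 in all 4 mice. Xist, which female cells make, was 93.67 to 169.17 FPKM over the 4 mice. Ddx3y of the Y chromosome was at most 0.02 FPKM, so by expression all 4 were female. In such bulk samples fewer cells of a type and less RNA per cell cannot be told apart, and the part of these other cells in the receptor values was not tested.

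The stretches before the start sites of 3 receptors are shown because they are the genes that set the pattern described here: Nr1h5, its nearest relative Nr1h4, and Ppara, which had the largest log2 fold change of the other 9. Each is the 250 bases before a RefSeq start (GRCm38.p6), 5′ to 3′ on the strand of the gene, with every CG dinucleotide in capitals. They lie at chr3:102964134-102964383 on the minus strand, chr10:89506659-89506908 on the minus strand and chr15:85735526-85735775 on the plus strand. None of the 3 starts is the outermost end of its gene. The window of Nr1h4 lies far inside the gene, which begins at 89533645 on its strand, so it stands before an internal start. That of Ppara lies just inside the gene, which begins at 85734910.
Nr1h5: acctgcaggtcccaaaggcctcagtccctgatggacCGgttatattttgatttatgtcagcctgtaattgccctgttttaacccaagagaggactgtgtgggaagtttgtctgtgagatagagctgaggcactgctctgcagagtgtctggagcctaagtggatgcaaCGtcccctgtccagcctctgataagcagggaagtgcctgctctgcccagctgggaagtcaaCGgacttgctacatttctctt
Nr1h4: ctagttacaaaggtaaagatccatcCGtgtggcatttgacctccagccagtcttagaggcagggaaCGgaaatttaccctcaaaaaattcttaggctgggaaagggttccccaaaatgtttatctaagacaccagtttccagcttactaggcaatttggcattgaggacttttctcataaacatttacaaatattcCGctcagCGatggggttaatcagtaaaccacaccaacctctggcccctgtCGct
Ppara: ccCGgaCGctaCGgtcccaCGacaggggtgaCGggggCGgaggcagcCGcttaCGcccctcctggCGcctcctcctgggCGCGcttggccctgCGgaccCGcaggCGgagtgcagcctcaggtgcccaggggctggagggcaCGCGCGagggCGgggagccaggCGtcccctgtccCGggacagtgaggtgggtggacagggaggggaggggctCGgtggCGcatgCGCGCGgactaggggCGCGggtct
Nr1h5 had 3 CG dinucleotides in this window, Nr1h4 had 5 and Ppara had 27, against a median of 6 over the 32851 promoters of the same length. Fewer were present in 29.0% of all promoters for Nr1h5, in 44.4% for Nr1h4 and in 91.4% for Ppara. The letters AGGTCA, the core that most nuclear receptors recognize, were searched on both strands. They were present in 5 of the 15 promoters of the 10 genes, belonging to Nr1h4, Nr5a2, Pparg and Rxra, and in 14% of all promoters. The window of Nr1h5 did not hold them.

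Nr1h5 was barely detected in Lgr5-CREPTWT cells and was at a low level in Lgr5-CREPTKO cells. It was 0.06 FPKM in each Lgr5-CREPTWT mouse and 3.33 and 4.52 FPKM in the Lgr5-CREPTKO mice. Both Lgr5-CREPTKO mice were far above both Lgr5-CREPTWT mice, and the gene passed the filter on low values through the Lgr5-CREPTKO mice alone. Its means were 0.06 ± 0 and 3.925 ± 0.841 FPKM (SD, n = 2 each) and its log2 fold change of 2.97 was number 4 of the 12621 genes tested, which is the value it was chosen for. In Lgr5-CREPTWT cells 15.8% of all genes in the table had a lower mean, and in Lgr5-CREPTKO cells 48.5%.

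The table holds no counts, but the smallest step between values of small genes gave an estimate of the depth, which was similar in the 4 mice. At that depth 0.06 FPKM stands for about 3 reads a mouse if the longest Nr1h5 transcript (2835 bases) was present and 1.4 if the shortest (1344 bases) was, against about 168 and 218 or 80 and 103 reads in the Lgr5-CREPTKO mice. The ratio of the means was 65.4, and it describes the value the gene was chosen for. Its denominator rests on these few reads, so its size is loose. Of the 2927 words of 50 bases in the Nr1h5 transcripts, 6 (0.205%) occur in transcripts of another gene, and none of those of Nr1h4 do. RefSeq places 1 further gene inside Nr1h5, which has no row in the table, and whether the counting used strand was not given in the sources used here.

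Nr1h4, the bile acid receptor FXR itself, did not pass the test. It lies on chromosome 10 (89454234 to 89533645, minus strand). It was 11.69 and 14 FPKM in the Lgr5-CREPTWT mice and 9.67 and 10.36 FPKM in the Lgr5-CREPTKO mice, so that both Lgr5-CREPTKO values were below both Lgr5-CREPTWT values. Its log2 fold change was -0.34 (SE 0.119, adjusted p = 0.172). Nr1h5 made up 0.427% and 0.511% of the summed FPKM of both farnesoid X receptor genes in the Lgr5-CREPTWT mice, and 25.6% and 30.4% in the Lgr5-CREPTKO mice.

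**Figure D1:**
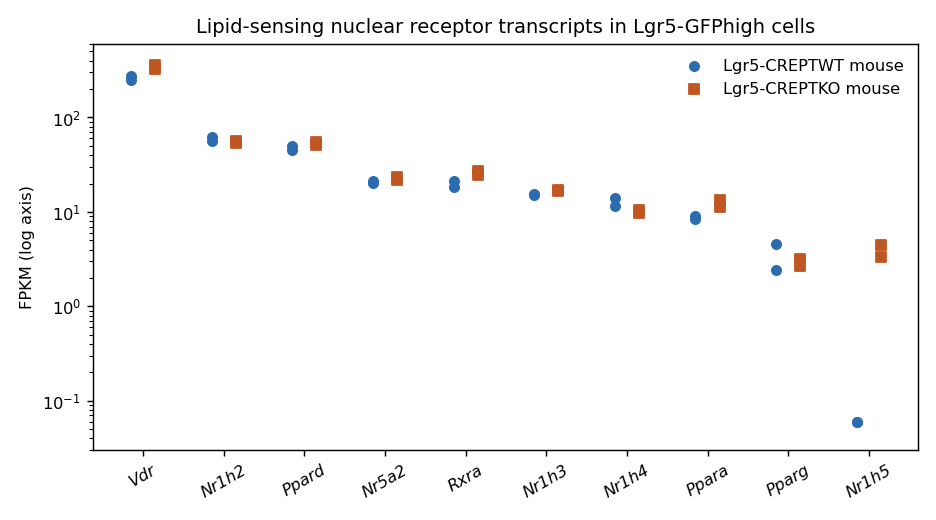
FPKM of the 10 receptor genes on a log axis, with 1 point per mouse (circles for 2 Lgr5-CREPTWT, squares for 2 Lgr5-CREPTKO). The genes are ordered by their level in Lgr5-CREPTWT cells, with Nr1h5 as the lowest at the end. Nr1h5 moves from 0.06 FPKM to between 3.33 and 4.52 FPKM, while the genotypes of the other 9 lie close together on this axis.

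The liver X receptors sense oxysterols and drive cholesterol export. Nr1h3 (chromosome 2, 91184061 to 91202829, minus strand) was 15.52 and 15.25 FPKM in the Lgr5-CREPTWT mice and 17.24 and 16.81 FPKM in the Lgr5-CREPTKO mice. The Lgr5-CREPTKO values were higher without overlap, by a log2 fold change of 0.14 (SE 0.0781, adjusted p = 0.334). Nr1h2 (chromosome 7, 44549616 to 44553968, minus strand), the more widely expressed form, was 56.53 and 62.63 against 53.17 and 56.08 FPKM. Its Lgr5-CREPTKO values were lower without overlap, by a log2 fold change of -0.12 (SE 0.0831, adjusted p = 0.421). The ratio of Nr1h2 to Nr1h3 was 3.64 and 4.11 in the Lgr5-CREPTWT mice and 3.08 and 3.34 in the Lgr5-CREPTKO mice.

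Of the fatty acid receptors, Ppara, which drives fatty acid oxidation and ketone body synthesis, had the largest difference. Ppara (chromosome 15, 85734910 to 85806851, plus strand) was 9.01 and 8.34 FPKM in the Lgr5-CREPTWT mice and 13.39 and 11.33 FPKM in the Lgr5-CREPTKO mice. Both Lgr5-CREPTKO mice were above both Lgr5-CREPTWT mice, with a log2 fold change of 0.48 (SE 0.117) that did not pass the test (adjusted p = 0.0945). In the Lgr5-CREPTWT mice Ppara was 0.596 and 0.771 of the level of Nr1h4, and in the Lgr5-CREPTKO mice it was 1.09 and 1.38 of it.

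Ppard (chromosome 17, 28232754 to 28301469, plus strand), the form found in most tissues, was the most abundant of the 3 peroxisome proliferator-activated receptors. It was 45.11 and 50.27 FPKM in the Lgr5-CREPTWT mice and 51.07 and 54.5 FPKM in the Lgr5-CREPTKO mice. The genotypes did not overlap, and the log2 fold change was 0.15 (SE 0.0867, adjusted p = 0.367). It made up 76.9% and 82.4% of the summed FPKM of the 3 genes in the Lgr5-CREPTWT mice and 75.5% and 79.6% in the Lgr5-CREPTKO mice. Pparg (chromosome 6, 115360879 to 115490404, plus strand), the receptor of fat cell differentiation, was low and was the single one of the 9 whose genotypes overlapped. It was 4.53 and 2.4 FPKM in the Lgr5-CREPTWT mice and 3.14 and 2.65 FPKM in the Lgr5-CREPTKO mice, with a log2 fold change of -0.17 (SE 0.29, adjusted p = 0.762). Without Lgr5-CREPTWT mouse 1, which held the highest value, the sign turned and the log2 fold change was 0.22.

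Vdr, which mediates the action of vitamin D on calcium uptake, was the most abundant receptor of the group in every mouse. Vdr (chromosome 15, 97854427 to 97908296, minus strand) was 248.25 and 274.09 FPKM in the Lgr5-CREPTWT mice and 362.42 and 322.81 FPKM in the Lgr5-CREPTKO mice. Both Lgr5-CREPTKO values were higher, with a log2 fold change of 0.39 (SE 0.0948) and an adjusted p of 0.0947, which did not pass. Rxra (chromosome 2, 27676445 to 27763319, plus strand), a common partner of all the pairs above, was 18.59 and 21.35 against 27.24 and 24.69 FPKM. The genotypes of Rxra did not overlap either, and its log2 fold change was 0.37 (SE 0.105, adjusted p = 0.121). Rxra made up 31.5% and 31.9% of the summed FPKM of the retinoid X receptors Rxra, Rxrb and Rxrg in the Lgr5-CREPTWT mice and 37.0% and 41.7% in the Lgr5-CREPTKO mice. Rxrb, the other retinoid X receptor of these cells, had a log2 fold change of -0.10 with overlapping genotypes, and Rxrg was at most 0.03 FPKM in any mouse.

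Nr5a2 (LRH-1), which binds phospholipids and acts in bile acid and local steroid synthesis, differed little. Nr5a2 (chromosome 1, 136842562 to 136960448, minus strand) was 21.15 and 20.01 FPKM in the Lgr5-CREPTWT mice and 23.33 and 21.83 FPKM in the Lgr5-CREPTKO mice. The Lgr5-CREPTKO values were higher without overlap, by a log2 fold change of 0.13 (SE 0.0824, adjusted p = 0.392).

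Among the 9 receptors other than Nr1h5, 0 were called in limma's test and 0 had an adjusted p below 0.05, while 4 of 9 had an unadjusted p below 0.05, against 24.5% of all genes tested. Both Lgr5-CREPTKO values were above both Lgr5-CREPTWT values for 6 of 9, below for 2 and overlapping for 1. Over all genes tested the shares were 25.6% above and 31.0% below. Their log2 fold changes ran from -0.34 to 0.48 with a median of 0.14, beside -0.01 for all genes tested. An adjusted p above the threshold with 2 mice a genotype does not show that these levels are equal.

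**Figure D2:**
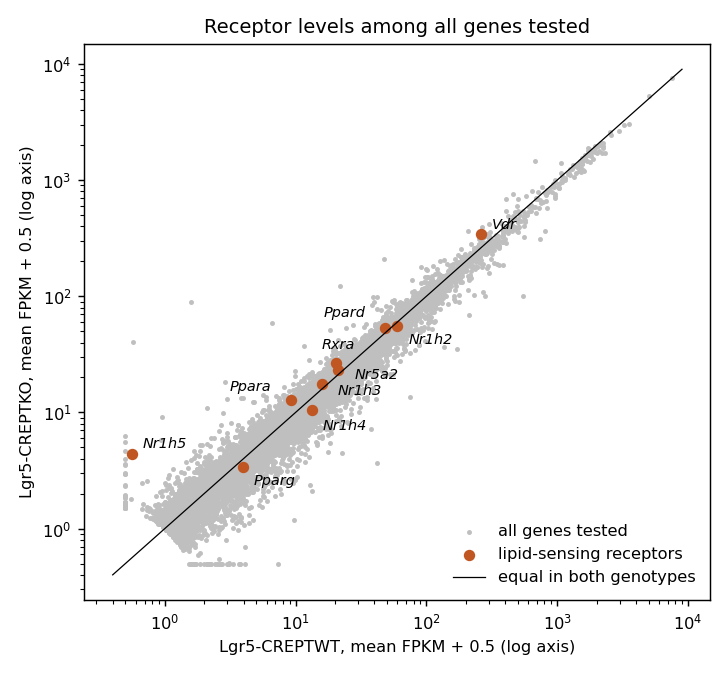
Mean FPKM + 0.5 of each gene tested in Lgr5-CREPTWT (horizontal) and Lgr5-CREPTKO cells (vertical), both on log axes, with the receptors as large points and the line of equal levels. Nr1h5 stands far above the line, and the other 9 lie within 0.48 log2 units of it.

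The order of the levels was largely kept. In Lgr5-CREPTWT cells it ran from Vdr over Nr1h2, Ppard, Nr5a2, Rxra, Nr1h3, Nr1h4, Ppara and Pparg to Nr1h5, and of these neighbours Nr5a2 and Rxra overlapped. In Lgr5-CREPTKO cells it ran from Vdr over Nr1h2, Ppard, Rxra, Nr5a2, Nr1h3, Ppara, Nr1h4 and Nr1h5 to Pparg, and Nr1h2 and Ppard overlapped. Neighbours thus changed places at these points, Nr5a2 with Rxra, Nr1h4 with Ppara and Pparg with Nr1h5. The ratio of Nr1h5 to Pparg was 0.0132 and 0.025 in the Lgr5-CREPTWT mice and 1.06 and 1.71 in the Lgr5-CREPTKO mice.

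Nr1h5 lies on chromosome 3 from 102939658 to 102964291 on the minus strand of GRCm38.p6. The nearest gene of the table, Sycp1, which encodes a structural protein of paired meiotic chromosomes, lies 3.56 kb downstream on the same strand. Sycp1 was 0 and 0.02 FPKM in the Lgr5-CREPTWT mice and 0.79 and 0.20 FPKM in the Lgr5-CREPTKO mice. Both Lgr5-CREPTKO values were above both Lgr5-CREPTWT values, as for Nr1h5, but the mean was below 0.5 FPKM, so the gene was not tested. At its longest transcript (3437 bases) the values stand for about 0 and 1.2 against 48 and 12 reads. At its shortest (608 bases) they stand for about 0 and 0.22 against 8.6 and 2.1 reads. Of its 3599 words of 50 bases, 197 (5.47%) occur in transcripts of other genes.

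Of the other neighbours, Tspan2, Vangl1, Sike1 and Nras were not higher in both Lgr5-CREPTKO mice. Tspan2, 167 kb downstream, was at most 0.05 FPKM in any mouse, and Vangl1, a planar polarity gene 735 kb downstream, had a log2 fold change of 0.16 (adjusted p = 0.649). Upstream, Sike1 at 31.4 kb was 7.69 and 8.61 against 7.90 and 8.08 FPKM (log2 fold change -0.02, adjusted p = 0.911). Nras at 94.0 kb, a small GTPase gene, was 17.67 and 16.24 against 12.91 and 15.37 FPKM (log2 fold change -0.26, adjusted p = 0.252). It was lower in both Lgr5-CREPTKO mice, as were 31.0% of all genes tested.

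**Figure D3:**
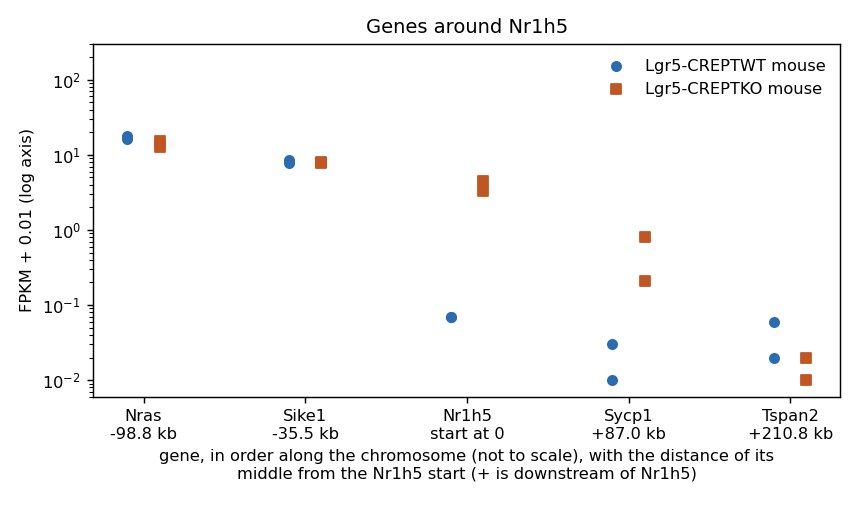
FPKM + 0.01 on a log axis for Nr1h5 and its neighbours Nras, Sike1, Sycp1 and Tspan2, in their order along the chromosome, with 1 point per mouse. Nr1h5 and the low values of Sycp1 are higher in both Lgr5-CREPTKO mice, Nras is slightly lower in both, and Sike1 overlaps between the genotypes.

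The genes whose values over the 4 mice were nearest to those of Nr1h5 were mostly small RNA genes. By Euclidean distance of log2(FPKM + 0.5) from the Lgr5-CREPTWT mean, over the 4 mice, these were Mir6954 (0.379), Amd2 (0.816), Mir7652 (0.905), Mir19a (1.07) and Mir6340 (1.1), where a smaller distance means a more similar pattern. Amd2, a gene for an S-adenosylmethionine decarboxylase of polyamine synthesis, was 0.49 and 0.39 FPKM in the Lgr5-CREPTWT mice and 3.18 and 7.35 FPKM in the Lgr5-CREPTKO mice. The 4 microRNA genes were all at 0 in both Lgr5-CREPTWT mice, and values of such short genes rest on few reads. Over all rows, 6 genes were at or below 0.1 FPKM in both Lgr5-CREPTWT mice and at or above 1 FPKM in both Lgr5-CREPTKO mice. Of these, 5 were small RNA genes and the other was Nr1h5. Nr1h5 was chosen for this contrast and the cut-offs were set with that known, so its place here is no separate finding. Amd2 fell outside through its Lgr5-CREPTWT values. In the reverse direction there were 11 genes, all of them small RNA genes.

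The rest of the nuclear receptor family was read from the same fit. Of 38 further nuclear receptors in the table, 27 passed the filter, 0 were called higher and 1 was called lower (0.127% and 1.01% of all genes tested). Their median log2 fold change was 0.10, or 0.03 without the filter and 0.18 with FPKM rescaled to an equal total. The gene called lower was Nr2e3, a photoreceptor nuclear receptor in the retina, at 18.54 and 14.7 against 6.75 and 7.63 FPKM (log2 fold change -1.15, SE 0.143, adjusted p = 0.0373). This call was lost without the filter (adjusted p = 0.128), without the intensity trend (0.0688) and with a replicate block (0.0514). Hnf4a, a master regulator of intestinal epithelial genes, was 312.17 and 303.6 against 361.62 and 346.54 FPKM (log2 fold change 0.20, adjusted p = 0.166). The thyroid hormone receptor Thra was 55.94 and 51.31 against 71.33 and 71.09 FPKM (log2 fold change 0.41, adjusted p = 0.0623).

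Nr4a1, an immediate early gene, was 107.83 and 14.79 against 57.34 and 80.66 FPKM, with the Lgr5-CREPTWT mice on either side of both others. Over the 27 receptors, 10 were higher and 2 lower in both Lgr5-CREPTKO mice (25.6% and 31.0% of all genes tested), and 15 overlapped. The range of log2 fold changes ran from -1.15 to 0.98, beside the 2.97 for which Nr1h5 was chosen.

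**Figure D4:**
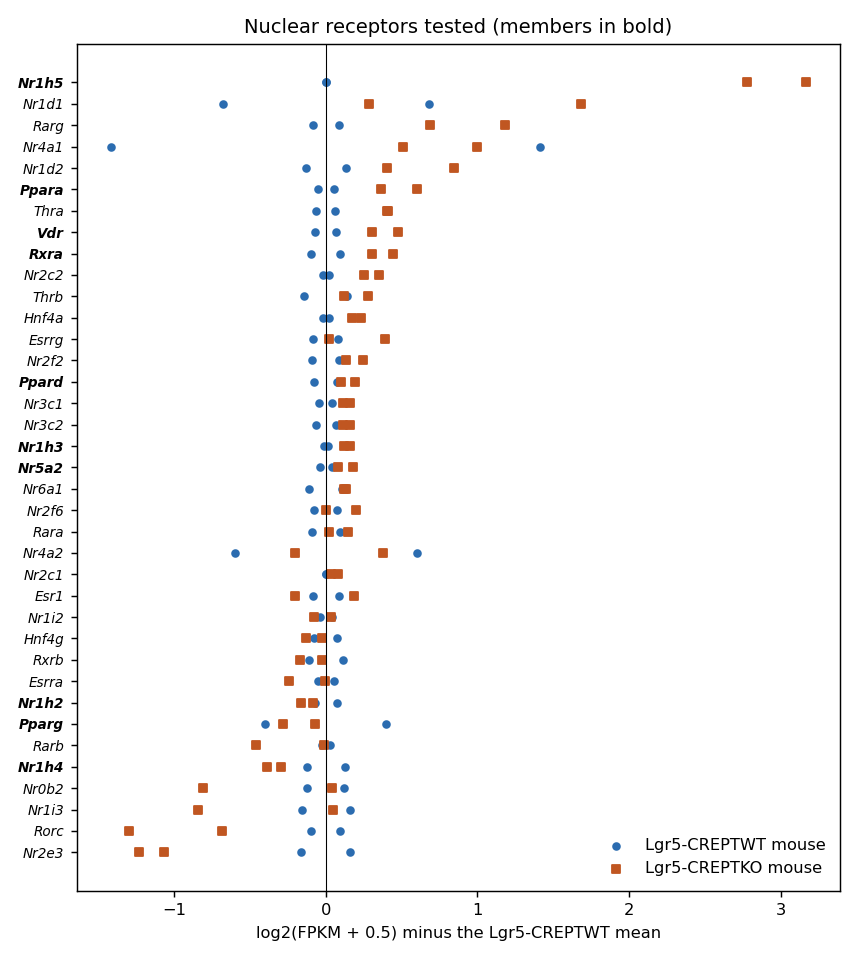
log2(FPKM + 0.5) minus the Lgr5-CREPTWT mean for each nuclear receptor gene tested, with 1 point per mouse and the 10 receptors described here in bold. Nr1h5, which was chosen by its log2 fold change, is at the top. Nr2e3 at the bottom is the one of the 27 further receptors called, as lower. That call was lost in 3 other fits and with any mouse left out.

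Receptors act through coactivators and corepressors, and of 12 such genes all 12 had a log2 fold change above 0 (47.7% of all genes tested did), with a median of 0.29. Both Lgr5-CREPTKO values were above both Lgr5-CREPTWT values for 11 of 12 (25.6% of all genes tested), but limma called 0 of 12. An unadjusted p below 0.05 was found for 4 (24.5% of all genes tested). Ncor1, a corepressor that binds receptors without ligand, was 49.95 and 48.73 against 61.79 and 59.86 FPKM (log2 fold change 0.30, adjusted p = 0.0834). The acetyltransferase Ep300 was 20.42 and 20.86 against 25.7 and 22.67 FPKM (0.22, adjusted p = 0.225), and the Mediator subunit Med1, the 1 gene that overlapped, had a log2 fold change of 0.01.

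Of 7 genes known to respond to FXR, 4 passed the filter. In limma's test 0 were called and 0 had an unadjusted p below 0.05 (24.5% of all genes tested did). Their median log2 fold change was -0.06. This median over 4 genes has no firm sign, being 0.65 without Lgr5-CREPTKO mouse 1, 0.17 without Lgr5-CREPTWT mouse 2, 0.01 with FPKM rescaled to an equal total and -0.38 with the filter at 1 FPKM. Fgf15, the ileal hormone that curbs bile acid synthesis and a leading FXR target, was 0.12 and 0.03 against 0.09 and 0.13 FPKM, near the floor in every mouse. The bile acid transporter Slc10a2 was at most 0.47 FPKM and Abcb11 at most 0.09 FPKM. Fabp6, the ileal bile acid binding protein, was 0.23 and 0.56 against 0.79 and 0.94 FPKM (log2 fold change 0.63). Its Lgr5-CREPTWT mean was 0.395 FPKM, so this member of the 4 passed the filter only through the Lgr5-CREPTKO mice. Its values are given as a description.

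The basolateral bile acid exporter genes Slc51a and Slc51b overlapped between the genotypes. Slc51a was 5.94 and 6.07 against 5.4 and 9.86 FPKM (adjusted p = 0.603), and Slc51b was 1.78 and 3.82 against 0.66 and 4.38 FPKM (adjusted p = 0.785). Nr0b2 (SHP), a repressor that FXR and Nr5a2 both drive, was 2.15 and 1.74 against 2.01 and 0.89 FPKM (log2 fold change -0.38, adjusted p = 0.518). Of the 7, Fabp6 was higher and Slc10a2 lower in both Lgr5-CREPTKO mice, each at low values, and the other 5 overlapped. Of all genes tested, 56.6% did not overlap.

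Of 12 LXR targets 10 passed the filter, with a median log2 fold change of 0.16 (0.08 without Lgr5-CREPTWT mouse 1, 0.10 without the filter) and 0 called. Fasn, the fatty acid synthase, rose at an adjusted p below 0.05 with a fold below the threshold, from 29.04 and 27.04 to 41.59 and 40.93 FPKM (log2 fold change 0.55, SE 0.0755, adjusted p = 0.0396). This value was 0.123 without the filter, 0.0843 without the intensity trend and 0.0585 with a replicate block. Lpcat3, a phospholipid remodelling enzyme, had a log2 fold change of 0.08 and Smpdl3a, a phosphodiesterase, one of 0.19 (adjusted p = 0.534 and 0.26). Scd2, a fatty acid desaturase, was 17.94 and 12.13 against 7.25 and 12.9 FPKM (-0.58, adjusted p = 0.325).

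Of 25 PPAR targets, mainly genes of fatty acid oxidation, 23 passed the filter and 0 were called. In both Lgr5-CREPTKO mice 8 were higher and 4 lower (25.6% and 31.0% of all genes tested). An unadjusted p below 0.05 was found for 5 (24.5% of all genes tested). The median log2 fold change was 0.13 (0.21 with FPKM rescaled to an equal total). Hadhb, a subunit of the mitochondrial trifunctional protein, was 106.24 and 101.36 against 142.33 and 116.74 FPKM (0.31, adjusted p = 0.18). The thiolase Acaa2 was 120.03 and 97.04 against 147.78 and 121.5 FPKM (0.31, adjusted p = 0.267). Fabp2, an enterocyte fatty acid carrier, overlapped (-0.22, adjusted p = 0.577). Creb3l3, a partner of PPAR-alpha, was 5.97 and 7.58 against 3.51 and 4.89 FPKM (log2 fold change -0.64, adjusted p = 0.142).

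Of the VDR targets 6 of 7 were in the table and 4 passed the filter. Of these 0 were called and 0 had an unadjusted p below 0.05 (24.5% of all genes tested did). Their median log2 fold change was 0.11 (0.28 without Lgr5-CREPTWT mouse 1, 0.06 without mouse 2, 0.17 with FPKM rescaled to an equal total). S100g, the calcium carrier calbindin-D9k, was 35.21 and 21.21 against 44.04 and 31.77 FPKM, with overlap (adjusted p = 0.389). The calcium pump Atp2b1 had a log2 fold change of 0.13 (adjusted p = 0.4), and the drug-metabolizing enzyme Cyp3a11 was 1.84 and 2.62 against 1.23 and 2.81 FPKM.

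Of the Nr5a2 targets 5 of 6 were in the table, 4 were tested and 0 were called. An unadjusted p below 0.05 was found for 2, Ccnd1 and Cyp11a1 (24.5% of all genes tested), and the median log2 fold change was 0.30. This median over 4 genes turned to -0.14 with the filter at 1 FPKM, which drops Cyp11a1, and was 0.09 without the filter, 0.16 without Lgr5-CREPTWT mouse 2 and 0.43 without Lgr5-CREPTWT mouse 1. Ccnd1 (cyclin D1) was 56.28 and 52.04 against 80.81 and 100.2 FPKM (log2 fold change 0.73, SE 0.122, adjusted p = 0.0553, or 0.0388 to 0.0498 with small RNA genes left out, with the filter at 1 FPKM and with either rescaling of FPKM). Cyp11a1, the first enzyme of steroid synthesis, was 0.15 and 0.21 against 1.1 and 1.18 FPKM (log2 fold change 1.27). It passed the filter through the Lgr5-CREPTKO mice alone, so its values are given as a description and its p is not read as a result. Ccne1 (cyclin E1) was 9.32 and 6.76 against 7.48 and 6.9 FPKM, with overlap. Ccnd1 and Cyp11a1 were higher in both Lgr5-CREPTKO mice, as were 25.6% of all genes tested.

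Of 19 genes that make or carry ligands, 9 were tested, 0 were called and the median log2 fold change was -0.12, or 0.01 without Lgr5-CREPTKO mouse 1, -0.01 without Lgr5-CREPTWT mouse 1, -0.24 without Lgr5-CREPTKO mouse 2, -0.19 without Lgr5-CREPTWT mouse 2, -0.05 with FPKM rescaled to an equal total and -0.03 without the filter. Fabp5, which carries fatty acids and retinoic acid to Ppard, fell at an adjusted p below 0.05, from 10.7 and 11.39 to 5.99 and 4.64 FPKM (log2 fold change -1.0, SE 0.144, adjusted p = 0.0431). This value was 0.132 without the filter, 0.077 without the intensity trend, 0.0571 with a replicate block and 0.052 with FPKM rescaled to an equal total. Cyp27a1, a sterol hydroxylase of oxysterol synthesis, was 6.5 and 10.41 against 16.45 and 13.29 FPKM (0.81, adjusted p = 0.131). Cyp51, the lanosterol demethylase, was 15.2 and 12.36 against 11.56 and 12.33 FPKM (-0.19, adjusted p = 0.405), and the retinol carrier Rbp2 overlapped.

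**Figure D5:**
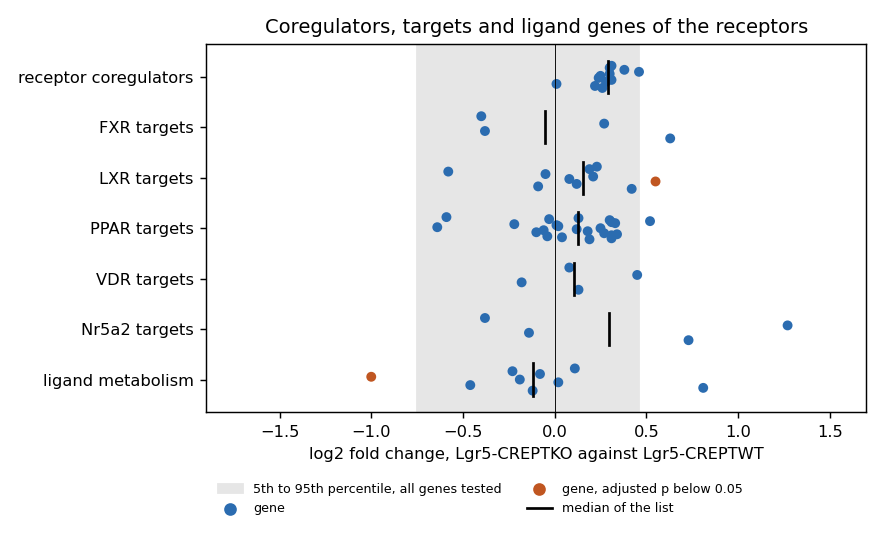
log2 fold change of each tested gene in 7 lists (coregulators, targets of 5 receptor classes, ligand genes), with the list median as a bar and the 5th to 95th percentile of all genes tested (-0.75 to 0.46) shaded. Fasn and Fabp5 are the genes with an adjusted p below 0.05, and all of the coregulators lie above 0.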

How the data were processed

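RNA from sorted Lgr5-GFPhigh cells of 2 Lgr5-CREPTWT and 2 Lgr5-CREPTKO mice was measured. The values deposited by the authors are FPKM, rounded to 2 decimals, with a column per mouse (total 468830 to 499327 FPKM). By the RNA-seq methods of the study, which do not name the sorted cells separately, reads were mapped to GRCm38.p6 transcripts with Bowtie2 and quantified with RSEM. The submitters' processing notes also name HISAT and mm10, and versions were not given in the sources used here. FPKM is relative to the rest of each library and carries no counts, so count models were not used.

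Columns were matched to genotypes by sample titles. limma 3.58.1 in R 4.3.3 (lmFit, eBayes with intensity trend) was run on log2(FPKM + 0.5) for 12621 genes whose mean reached 0.5 FPKM, without covariates. The method was tested on simulated data. Whether the mice of a genotype were separate preparations was not stated, so p-values measure the spread between these samples. Read numbers were estimated from the steps of low values and are approximate.

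The 10 receptors and all lists were chosen with earlier results of these data known. Genes named are the 10 receptors, of each list those with an adjusted p below 0.05, the 3 with the highest mean and the 1 with the largest absolute log2 fold change, the nearest 3 neighbours of Nr1h5 on each side, the 5 genes most like it, and Rprd1b. Some genes under this rule are not reported here. Fgf15, Slc10a2, Abcb11, Rxrb, Rxrg, Olfm4, Gkn3, Kcne3, Aqp1, Kcnq1, Xist, Ddx3y and the synaptonemal complex genes were added after their values were seen. Of 18436 symbols 17637 were found in RefSeq (GRCm38.p6), the source of coordinates and promoters. Words of 50 bases were compared over GENCODE M21 transcripts. Protein sequences were not analysed here.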

Additional observations from a re-analysis of the deposited data

How the results depend on the processing

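Of the whole table's 16 genes called higher and 128 called lower, 0 and 0 were called by limma without the filter on low values (smallest adjusted p 0.105, 3570 genes at an unadjusted p below 0.05), 0 and 4 without the intensity trend (2921 at an unadjusted p below 0.05), and 0 to 0 in both directions when a mouse was left out (1811 to 2334 at an unadjusted p below 0.05). With an adjusted p below 0.05 alone they were 52 and 337. Same-numbered mice are different animals, and their deviations from the genotype means correlated at -0.0266 over all genes tested. Whether mice of the same number shared a preparation was not stated and was not tested. A replicate block gave 8 higher and 101 lower, and 0 further nuclear receptors in place of 1. Nr2e3 was also lost without the filter and without the trend (0 each), and with any mouse left out (0 to 0). LXR targets had 1 gene with an adjusted p below 0.05 alone. Nr5a2 targets had 1 gene called with small RNA genes left out, Cyp11a1, which passed the filter through the Lgr5-CREPTKO mice alone. Ligand genes had 1 called with a pseudocount of 0.1 and 1 with the adjusted p alone. The cause of these changes was not tested. With a mouse left out Pparg ran from -0.57 to 0.22, the latter without Lgr5-CREPTWT mouse 1. Over 13 alternatives no adjusted p of the other 9 receptors was below 0.05, the lowest being 0.0684 for Vdr, 0.0746 for Ppara and 0.0822 for Rxra with FPKM rescaled to an equal total, which moved the median of all genes to 0.06. The log2 fold change of Nr1h5 ran from 2.21 with a pseudocount of 1 to 4.64 with 0.1. FPKM depth limits Nr1h5 in Lgr5-CREPTWT cells and Sycp1, which rest on a few reads.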

Other observations

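Because Sycp1 lies beside Nr1h5 and was higher in both Lgr5-CREPTKO mice, 6 other genes of the synaptonemal complex, which pairs chromosomes in meiosis, were read after its values were seen. None of Sycp2, Sycp3, Syce1, Syce2, Syce3 and Tex12 separated the genotypes. Syce2, the most abundant, was 14.9 and 10.95 against 11.03 and 7.57 FPKM (log2 fold change -0.46, adjusted p = 0.289). Sycp3 was 2.1 and 1.38 against 1.31 and 1.46 FPKM, and Sycp2 was at most 0.02 FPKM in any mouse.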
